A study of Mus musculus with 12 samples.

Results

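The genes described here are the 9 mouse MHC class II pathway genes H2-Aa, H2-Ab1, H2-Eb1, Cd74, H2-DMa, H2-DMb1, H2-DMb2, H2-Oa and H2-Ob together with Ciita, the gene of their shared transactivator. They were taken by symbol from the deposited expression tables, as 10 of 24346 gene symbols, and no symbol was listed more than once. The tables come from bulk RNA-seq of tumour-associated macrophages of Arg1-RFP mice, whose red fluorescent reporter reads out arginase 1. The mice bore tumours of B16F10, a mouse melanoma line, or of MC38, a mouse colon adenocarcinoma line, and macrophages were sorted by the reporter into positive (RFP+) and negative (RFP-) cells. There were 12 libraries in 4 groups of 3, namely RFP+ cells from B16F10, RFP- cells from B16F10, RFP+ cells from MC38 and RFP- cells from MC38. All 4 groups carried the reporter and passed the same sort for CD45, MHCII, F4/80 and CD11b and against Ly6C, Ly6G, NK1.1, CD90.2 and B220. Cells without surface MHC class II protein were therefore left out of every group, and the class II transcript levels below describe cells already chosen for that protein. The labels give no age, sex or strain, nor the animal behind a library.

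MHC class II molecules are pairs of an alpha and a beta chain that carry peptides of taken-up protein to the cell surface, where CD4 T cells read them. The invariant chain, encoded by Cd74, guides new pairs to the endosome and blocks their groove until cathepsins cut it down to a short fragment. The exchange factor H2-DM then swaps that fragment for peptide, and H2-DO inhibits H2-DM. Transcription of these genes runs through CIITA, which binds no DNA itself and is recruited by RFX, CREB and NF-Y proteins assembled on the X and Y boxes of the promoters. Interferon gamma, acting in part through IRF1, is the best known inducer of Ciita in macrophages.

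Of the 10 genes, 8 lay on chromosome 17 within 224.3 kb, from 34092340 to 34316674 (GRCm38, GENCODE annotation), while Cd74 and Ciita lay on other chromosomes. Promoter windows from RefSeq (GRCm38.p6, 250 bases before to 50 after a start) were matched for 7 of the 10 genes by symbol. The stretches below are shown because each holds the letters AAC at a like distance before the letters ATTGG of the Y box core, which lets the windows be compared. Capitals mark AAC and ATTGG, read 5′ to 3′ on the strand of the gene.
H2-Aa: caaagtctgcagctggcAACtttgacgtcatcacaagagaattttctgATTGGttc
H2-Eb1: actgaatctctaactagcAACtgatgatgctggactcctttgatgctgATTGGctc
H2-DMb1: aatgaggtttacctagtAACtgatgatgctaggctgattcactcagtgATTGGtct
H2-DMb2: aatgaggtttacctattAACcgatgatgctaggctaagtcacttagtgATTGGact
H2-Oa: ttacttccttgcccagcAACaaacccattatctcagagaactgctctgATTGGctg
H2-Ob: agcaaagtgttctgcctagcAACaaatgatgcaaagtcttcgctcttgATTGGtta
They stand on chromosome 17 at chr17:34287864-34287919 on the minus strand for H2-Aa, and on the plus strand at chr17:34305760-34305815 for H2-Eb1, chr17:34153082-34153137 for H2-DMb1, chr17:34145111-34145166 for H2-DMb2, chr17:34092288-34092343 for H2-Oa and chr17:34238800-34238855 for H2-Ob. In all 6 between 25 and 28 bases lay between the AAC and the Y box core, a spacing found, on either strand, in 2.49% of the 32851 promoter windows; this looser pattern was chosen after the sequences were seen. The stricter X box core GNAACNG followed by ATTGG within 10 to 40 bases, searched on both strands, was present in only H2-Eb1 and H2-DMb1 of these 6 and in 1.46% of all windows. Taken singly, GNAACNG occurred in 42.3% and ATTGG in 37.4% of windows, so neither letter string alone sets these promoters apart. H2-DMa held the Y box core without an AAC at that spacing. A match of letters is a description of the window, not evidence of binding.

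Levels are FPKM, fragment counts adjusted for transcript length and sequencing depth, and libraries are named by the number in their title, 12, 11 and 3 in B16F10 and 1, 2 and 3 in MC38. Total FPKM ran from 614875 to 815591 per library and 10445 to 11103 genes reached 1 FPKM. A single read, judged from the lowest values, stood for 3.03 to 3.63 times the FPKM in B16F10 that it did in the deepest library of MC38, and for 1 to 1.18 times within MC38. By this estimate, made without read counts, low FPKM values in B16F10 rest on fewer reads. The number of genes at 0 FPKM did not set the tumours apart, at 8479 to 10597 in B16F10 and 8527 to 10081 in MC38 libraries. Arg1, which the reporter follows, averaged 724 ± 167 FPKM in B16F10 RFP+ and 81.5 ± 38.2 FPKM in B16F10 RFP- cells, and 473 ± 79.7 FPKM in MC38 RFP+ and 51.7 ± 9.74 FPKM in MC38 RFP- cells (SD, n = 3 each). All 6 macrophage core genes (Csf1r, Adgre1, Mertk, Fcgr1, Cd68 and Lyz2) reached 1 FPKM in every group. Their summed level was 4257 to 10031 FPKM in B16F10 RFP+, 3124 to 6359 FPKM in B16F10 RFP-, 18403 to 21801 FPKM in MC38 RFP+ and 11616 to 14406 FPKM in MC38 RFP- cells.

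By group mean, each of the 10 genes was lowest in B16F10 RFP+ cells and highest in MC38 RFP- cells. Together the 10 genes made up 0.382% to 0.551% of all FPKM in B16F10 RFP+ and 0.821% to 1.80% in B16F10 RFP- libraries, against 5.05% to 6.43% in MC38 RFP+ and 7.02% to 8.32% in MC38 RFP- libraries. By mean FPKM, Cd74 ranked 38 among all genes in B16F10 RFP+ cells, 7 in B16F10 RFP-, 2 in MC38 RFP+ and 1 in MC38 RFP- cells. H2-Ab1 ranked 133, 24, 6 and 2 in the same groups. A lower level in bulk RNA can come, among other sources, from fewer cells that hold the transcript or from less transcript per cell. These libraries cannot tell them apart. The shares are of all RNA in a library, not of macrophage RNA alone. The melanocytic genes Pmel, Tyr, Tyrp1, Dct and Mlana summed to 7677 to 10098 FPKM in B16F10 RFP+ and 7632 to 10094 FPKM in B16F10 RFP- libraries. In MC38 they summed to 6.09 to 10.7 FPKM in RFP+ and 5.003 to 10.3 FPKM in RFP- libraries. The part of such RNA in the shares was not tested.

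**Figure D1:**
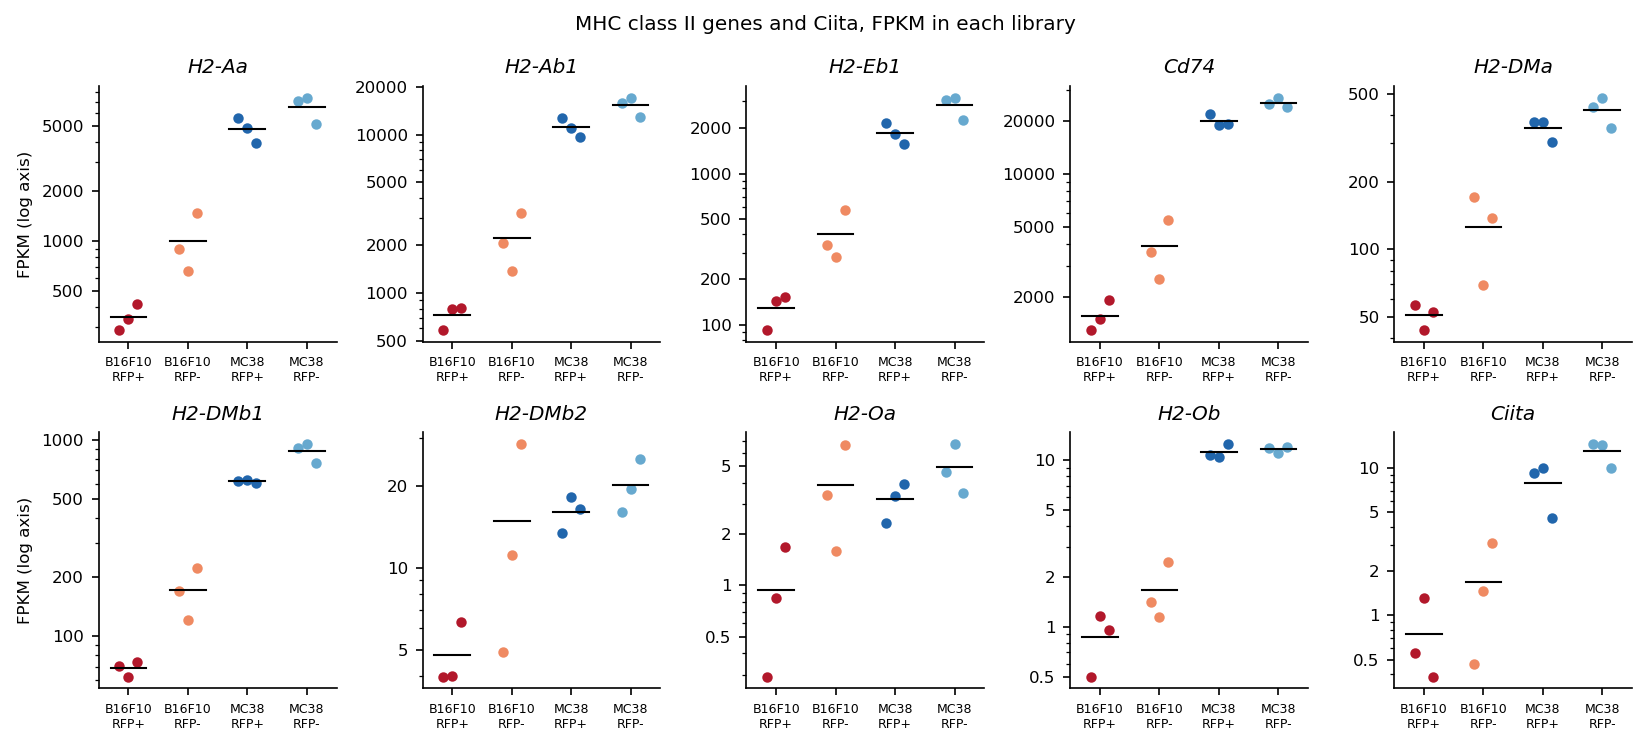
FPKM of the 10 genes in each library on a log axis, by group, with points for libraries (numbers 12, 11, 3 or 1, 2, 3 from left to right) and bars for the mean of 3. In every panel the B16F10 RFP+ bar is the lowest, and the MC38 points of 8 genes, all but H2-DMb2 and H2-Oa, lie above both B16F10 groups.

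The first question was how reporter-positive and reporter-negative macrophages differed within B16F10. The classical chains, the invariant chain and the abundant H2-DM chains were lower in RFP+ cells, by log2 differences between -1.56 and -1.21 on the scale log2(FPKM + 1). H2-DMb1 and the 3 classical chains passed limma's test over all genes kept, and Cd74 and H2-DMa passed as well when the library number entered as a block. H2-DMb2, H2-Oa, H2-Ob and Ciita passed in neither fit.

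H2-Ab1 encodes the beta chain of I-A, one of the class II pairs of the mouse. It had 584, 792 and 806 FPKM in RFP+ libraries 12, 11 and 3, against 2075, 1381 and 3200 FPKM in RFP- libraries 12, 11 and 3. Every RFP+ library lay below every RFP- library, and the RFP- libraries spread widely, with number 3 highest. The log2 difference was -1.54 ± 0.26 (SE; limma adjusted p = 0.0431, or 0.00586 with the block).

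H2-Aa, the alpha chain of I-A, had 288, 335 and 414 FPKM in RFP+ libraries and 890, 661 and 1471 FPKM in RFP- libraries, in the same library order. Here too the groups did not overlap and RFP- number 3 was highest. The log2 difference of -1.48 ± 0.26 passed narrowly (limma adjusted p = 0.0499, or 0.00148 with the block). H2-Eb1, the beta chain of I-E, had 92.5, 144 and 154 FPKM in RFP+ libraries against 337, 279 and 573 FPKM in RFP- libraries, again without overlap. Its log2 difference was -1.56 ± 0.26 (limma adjusted p = 0.0431, or 0.00148 with the block). The alpha chain partner of I-E is a pseudogene in some mouse strains. The row H2-Ea-ps stood at 0 FPKM in all B16F10 libraries, and in MC38 at 0.0926, 0.0475 and 0 FPKM in RFP+ and 0.135, 1.95 and 0.259 FPKM in RFP- libraries.

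Cd74 was the most abundant of the 10 genes in every library. It had 1297, 1495 and 1923 FPKM in RFP+ libraries, against 3620, 2519 and 5503 FPKM in RFP- libraries. All RFP+ values lay below all RFP- values, the nearest being RFP+ number 3 and RFP- number 11. The log2 difference was -1.25 ± 0.25, and it passed only with the block (limma adjusted p = 0.00863, against 0.0944 without).

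H2-DMb1 encodes a beta chain of the peptide exchange factor and had the smallest standard error of the called genes. It had 70.7, 62.2 and 74.3 FPKM in RFP+ libraries, against 170.2, 122 and 223 FPKM in RFP- libraries, a log2 difference of -1.26 ± 0.18 (limma adjusted p = 0.0211, or 0.0011 with the block). H2-DMa, the alpha chain, had 56.3, 43.4 and 52.2 FPKM in RFP+ libraries and 172, 69.2 and 138 FPKM in RFP- libraries. The groups did not overlap, and RFP- number 11 stood nearest to the RFP+ values. The log2 difference was -1.21 ± 0.26, and it too passed only with the block (limma adjusted p = 0.00448, against 0.12 without).

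H2-DMb2, a second beta chain gene, had 3.99, 4.0 and 6.36 FPKM in RFP+ libraries against 4.92, 11.1 and 28.5 FPKM in RFP- libraries. The groups overlapped through RFP+ number 3 and RFP- number 12, and the log2 difference was -1.18 ± 0.42 (limma adjusted p = 0.462, or 0.0737 with the block). H2-DMb1 and H2-DMb2 are near copies, and 22.7% of the 50-base stretches of H2-DMb1 transcripts occur in H2-DMb2 transcripts as well (21.2% of those of H2-DMb2). No other of the 45 pairs of these genes shared a stretch of that length. How the authors' counting divided the shared reads is not given, so the level of the weaker gene is uncertain.

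The chains of the inhibitor H2-DO and the transactivator were near the floor of these libraries. H2-Oa had 0.292, 0.849 and 1.68 FPKM in RFP+ libraries and 3.39, 1.58 and 6.63 FPKM in RFP- libraries (log2 difference -1.25 ± 0.37; limma adjusted p = 0.359, or 0.0643 with the block). H2-Ob had 0.501, 1.15 and 0.959 FPKM in RFP+ libraries and 1.40, 1.15 and 2.44 FPKM in RFP- libraries (log2 difference -0.50 ± 0.21; limma adjusted p = 0.497, or 0.244 with the block). The groups overlapped for both genes.

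Ciita had 0.552, 1.30 and 0.383 FPKM in RFP+ libraries, against 0.468, 1.47 and 3.12 FPKM in RFP- libraries. The values interleaved, and the RFP+ library lay below the RFP- library of the same number in 2 of 3 pairs. The log2 difference was -0.53 ± 0.36 (limma adjusted p = 0.553, or 0.339 with the block), with a 95% interval from -1.32 to 0.25. That interval holds 0 and also the differences of Cd74, H2-DMa and H2-DMb1. A change of their size in Ciita could therefore be neither shown nor set aside in these libraries.

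In all, 4 of the 10 genes were lower in B16F10 RFP+ cells without the block, where 0.0508% of the 11808 genes kept were called lower, and 6 with the block, where 0.525% were. All 10 log2 differences were negative. Without overlap and lower in RFP+ cells were 6 of 10, against 6.22% of all genes kept. The median log2 difference of the 10 was -1.25, beside -0.012 for all genes kept. These 10 genes were chosen with earlier results of these data known, so the counts describe them and are no independent support. The calls without the block were fragile, falling to 0 without RFP+ number 12, 11 or 3 or RFP- number 12, to 1 (H2-DMb1) without RFP- number 3 or any single MC38 library, and rising to 6 without RFP- number 11. With the compared groups alone and with no filter on low values 0 were called, with a pseudocount of 0.1 or quantile normalization 1, and with array weights 10. The share of all genes called lower in these alternative fits is not given here. The counts therefore show only how far the calls depend on the fit.

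The summed level of the 10 dendritic cell markers was 15.04 to 22.1 FPKM in B16F10 RFP+ cells and 32.7 to 58.7 FPKM in B16F10 RFP- cells, with 5 and 6 of the 10 at 1 FPKM or more in the group mean. The sums did not overlap. Over the 9 of these markers kept, the median log2 difference was -0.61, and 0 of the 9 passed limma's test without the block and 1 with it. Batf3, Cd209a and Ccr7 made up most of the sum. Of the defining markers of conventional dendritic cells, Flt3 averaged 0.449 FPKM in RFP+ cells and 1.001 FPKM in RFP- cells, Zbtb46 2.102 FPKM in RFP+ cells and 3.38 FPKM in RFP- cells, and Clec9a 0.142 FPKM in RFP+ cells and 0.138 FPKM in RFP- cells. Ccr7, the homing receptor of migrating dendritic cells, had 3.74, 8.74 and 0.164 FPKM in RFP+ libraries 12, 11 and 3, against 8.44, 39.6 and 4.03 FPKM in RFP- libraries. The groups overlapped, and RFP- number 11 raised the RFP- mean to 17.4 FPKM, against 4.22 FPKM in RFP+ cells. Ccr7 was the marker of the list called lower, with the block only (limma adjusted p = 0.00472). Of the 9 markers kept, Xcr1 and Fscn1 did not overlap between the gates, lower in RFP+ cells, and the others overlapped. Neither passed, Xcr1 at a log2 difference of -0.61 (limma adjusted p = 0.457, or 0.186 with the block). Fscn1 stood at -0.80 (limma adjusted p = 0.432, or 0.104 with the block). The 5 B cell markers summed to 6.14 to 8.88 FPKM in RFP+ cells and 5.80 to 19.0 FPKM in RFP- cells, mostly Cd79b, with Pax5 at 0 in all libraries. The sort left out B220+ cells, which would remove most B cells. The part of dendritic cells in the class II difference was not tested, nor was that of any B cells left. The macrophage core genes did not move the same way (median log2 0.24, with 1 of 6 below 0). Lyz2 stood at 0.65 and Mertk at 0.64 in B16F10, and neither passed there. Over the mean of both tumours Lyz2 was higher with the block (0.68, limma adjusted p = 0.0211). Scaling each library to these genes therefore lowers RFP+ against RFP- levels and is no independent check. It shifted the median of all genes to -0.26 and the median of the 10 to -1.53. On that scale 5 of the 10 were called lower, beside 0.0847% of genes kept.

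In MC38 the same 10 genes all had negative log2 differences between RFP+ and RFP- cells, from -0.69 for Ciita to -0.046 for H2-Ob, and none passed limma's test in either fit. Without the block 0% of genes kept were called lower in this comparison, and 0.0847% with it. At an unadjusted p under 0.05 stood 2 of the 10 genes without the block, H2-Eb1 and H2-DMb1, and 4 with it. The share of all genes kept at that cutoff is not given here, so no excess can be read from this. The median of the 10 was -0.46, beside 0.0017 for all genes kept. After scaling to the macrophage core genes the medians were -0.60 for the 10 genes and -0.14 for all genes kept, and again 0 of the 10 were called, as were 0% of genes kept.

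H2-Ab1 had 12745, 10953 and 9683 FPKM in MC38 RFP+ libraries 1, 2 and 3, against 15958, 17137 and 12980 FPKM in RFP- libraries 1, 2 and 3. No RFP+ library reached the lowest RFP- library, and number 3 was lowest in both gates. The log2 difference was -0.46 ± 0.26 (SE). H2-Eb1 had 2168, 1822 and 1561 FPKM in RFP+ libraries against 3083, 3175 and 2262 FPKM in RFP- libraries, also without overlap (log2 difference -0.61 ± 0.26; limma adjusted p = 1, or 0.331 with the block). H2-Aa overlapped, with 5546, 4825 and 3940 FPKM in RFP+ libraries and 7073, 7425 and 5101 FPKM in RFP- libraries.

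Cd74 had 21840, 18935 and 19202 FPKM in MC38 RFP+ libraries, against 25071, 27160.5 and 24028 FPKM in RFP- libraries. The groups stayed apart by a small margin, and the log2 difference was -0.35 ± 0.25. H2-DMb1 had 619, 624 and 603 FPKM in RFP+ libraries and 915, 953 and 767 FPKM in RFP- libraries, with a log2 difference of -0.51 ± 0.18 (limma adjusted p = 1, or 0.237 with the block). It was the exchange factor gene with the clearest separation in MC38, since H2-DMa, with 373, 373 and 304 FPKM in RFP+ and 436, 479.6 and 349.9 FPKM in RFP- libraries, overlapped.

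The remaining exchange factor gene and the inhibitor chains overlapped between the gates in MC38. H2-DMb2 had 13.4, 18.1 and 16.4 FPKM in RFP+ and 16.1, 19.4 and 25.1 FPKM in RFP- libraries. H2-Oa had 2.33, 3.36 and 3.96 FPKM in RFP+ and 4.61, 6.73 and 3.46 FPKM in RFP- libraries. H2-Ob was almost level, with 10.8, 10.4 and 12.5 FPKM in RFP+ and 11.9, 10.98 and 11.9 FPKM in RFP- libraries.

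Ciita in MC38 had 9.29, 9.97 and 4.61 FPKM in RFP+ libraries, against 14.6, 14.3 and 10.1 FPKM in RFP- libraries. The groups did not overlap, by the small distance between RFP+ number 2 and RFP- number 3, and RFP+ was lower in 3 of 3 pairs. Its log2 difference of -0.69 ± 0.36 was the lowest of the 10 genes in MC38 and did not pass (limma adjusted p = 1, or 0.758 with the block). Without overlap and lower in RFP+ cells were 5 of the 10 genes (H2-Ab1, H2-Eb1, Cd74, H2-DMb1 and Ciita), against 4.98% of all genes kept. The dendritic cell markers summed to 31.8 to 56.0 FPKM in MC38 RFP+ cells and 50.8 to 95.6 FPKM in MC38 RFP- cells, so the sums overlapped. Their median log2 difference was -0.59 over the 9 kept, of which 0 passed limma's test in MC38 in either fit. Xcr1, a receptor of cross-presenting dendritic cells, averaged 1.24 FPKM in MC38 RFP+ cells and 3.79 FPKM in MC38 RFP- cells, without overlap. Clec9a (-0.80), Dpp4 (-0.80) and Batf3 (-0.65) did not overlap either, while Zbtb46 (-0.043) and Cd209a (-0.082) were almost level. Over the mean of both tumours Xcr1 was lower in RFP+ cells by both fits (log2 difference -0.85, limma adjusted p = 0.031, or 0.0126 with the block). Scaling to the macrophage core genes ended that call, at -0.96 (limma adjusted p = 0.116). The part of dendritic cells in the class II difference in MC38 was not tested.

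**Figure D2:**
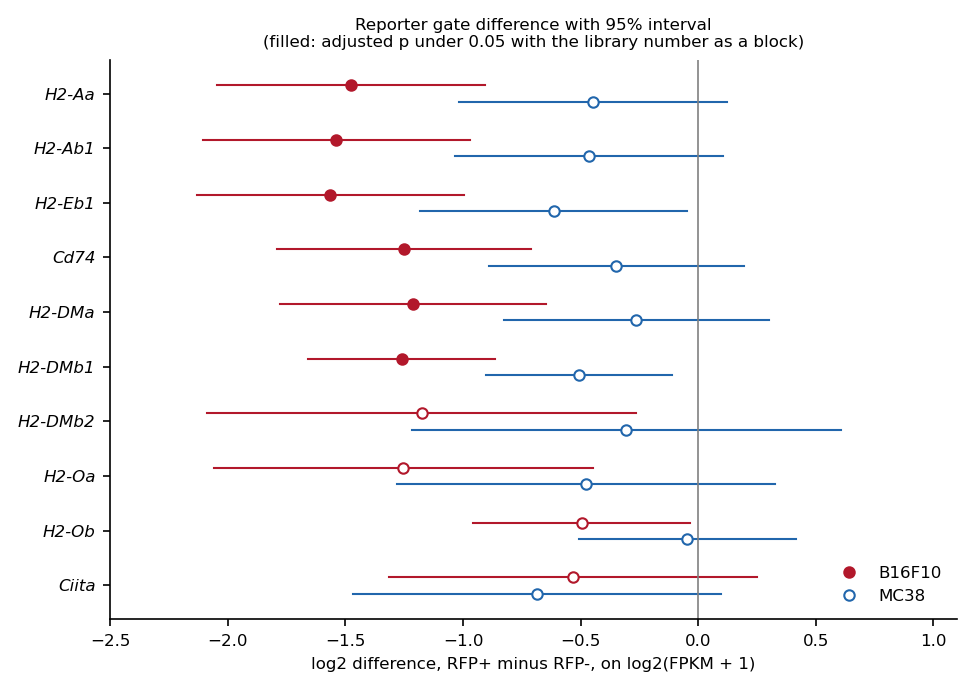
Log2 difference between RFP+ and RFP- cells of each gene in B16F10 and MC38, on log2(FPKM + 1), with the 95% interval of the limma fit without the block; filled points passed an adjusted p of 0.05 with the block. The points of all 10 genes lie left of 0 in both tumours, 6 are filled in B16F10 and 0 in MC38.

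Averaged over both tumours with equal weight, H2-Aa (log2 difference -0.96), H2-Ab1 (-1.001), H2-Eb1 (-1.09) and H2-DMb1 (-0.88) were lower in RFP+ cells, with limma adjusted p of 0.0443, 0.0384, 0.0222 and 0.0099. With the block Cd74 (-0.80, limma adjusted p = 0.0122) and H2-DMa (-0.74, 0.00758) joined them. That made 4 of 10 without the block, beside 0.11% of genes kept called lower, and 6 of 10 with it, beside 0.601%. Ciita averaged -0.61 ± 0.26 and did not pass (limma adjusted p = 0.609, or 0.236 with the block). Leaving out 1 library moved the count of 4 to between 1 and 6.

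A larger difference in B16F10 than in MC38 was seen for 9 of the 10 genes and could not be established for any. The difference between the tumours' gate differences, B16F10 minus MC38, was -1.07 ± 0.37 for H2-Ab1, -1.03 ± 0.37 for H2-Aa, -0.95 ± 0.37 for H2-Eb1, -0.90 ± 0.35 for Cd74, -0.95 ± 0.37 for H2-DMa and -0.75 ± 0.26 for H2-DMb1. Of the 10 genes, 0 passed in either limma fit (0% of genes kept were called lower without the block and 0.00847% with it). At an unadjusted p under 0.05 stood 6 without the block and 7 with it. The share of all genes kept at that looser cutoff is not given here, so no excess can be read from these counts. Adjusted p was at least 0.895 without the block and 0.392 with it. For Ciita the value was 0.15 ± 0.51, with a 95% interval from -0.95 to 1.26, and its sign turned in several of the alternative fits.

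Of the other genes of the pathway, cathepsin L stood apart in the reporter comparison. Ctsl, a protease that degrades the invariant chain in thymic epithelium and is active in macrophage lysosomes, had 296, 296 and 341 FPKM in B16F10 RFP+ libraries 12, 11 and 3, against 92.2, 85.6 and 100.1 FPKM in RFP- libraries. These values are far apart and run opposite to the class II genes (log2 difference 1.74 ± 0.16, limma adjusted p = 0.000376). Scaling to the macrophage core genes ended that call, at 1.47 (limma adjusted p = 0.0797), and the one over the mean of both tumours, at 0.93 (0.121). In MC38 Ctsl had 232, 292 and 210.0 FPKM in RFP+ libraries and 166, 189 and 131 FPKM in RFP- libraries (0.60 ± 0.16; limma adjusted p = 0.478, or 0.0385 with the block). Its gate difference was larger in B16F10 by 1.14, which passed only with the block (limma adjusted p = 0.0332, against 0.895 without). Ctsb, another lysosomal cathepsin, was higher over the mean of both tumours with the block only (0.43, limma adjusted p = 0.0376), and stood at 0.19 after that scaling (limma adjusted p = 0.705).

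Ctss, which encodes the main invariant chain protease of macrophages and dendritic cells, passed in no reporter comparison. None of the 7 genes of the promoter complex (Rfx5, Rfxank, Rfxap, Nfya, Nfyb, Nfyc and Creb1) passed in limma in a reporter comparison, with 1 of 7 at an unadjusted p under 0.05 in B16F10 and 0 in MC38, both with and without the block. Likewise 0 of the 11 genes of interferon gamma signalling and Ciita control passed, with 1 of 11 at an unadjusted p under 0.05 in B16F10 without the block and 5 with it, and 0 in MC38. For these unadjusted counts the share of all genes kept is not given here. Irf1, an activator of the interferon-responsive Ciita promoter, had a log2 difference of -0.34 ± 0.17 in B16F10 (limma adjusted p = 0.497) and 0.014 ± 0.17 in MC38. Jak1, the gene at an unadjusted p under 0.05 in B16F10 without the block, was higher in RFP+ cells there, at 0.53 ± 0.19 (limma adjusted p = 0.466). Jak2 stood at 0.78 ± 0.39 in B16F10 (limma adjusted p = 0.502). Of the 11 log2 differences in B16F10, 6 were below 0. Of the 5 genes of surface turnover and costimulation and the 3 around the invariant chain as a receptor for MIF, 0 passed, and 0 stood at an unadjusted p under 0.05 in either tumour without the block.

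The second question was how the tumours differed within a gate. All 10 genes were lower in B16F10 than in MC38 RFP+ cells in FPKM as deposited, in both limma fits, where 20.0% of genes kept were called lower. The median log2 difference was -2.95, beside 0.23 for all genes kept. H2-Ab1 averaged 728 ± 124 FPKM in B16F10 and 11127 ± 1538 FPKM in MC38 RFP+ cells (SD, n = 3 each), lower by a log2 difference of -3.94 ± 0.26 with a limma adjusted p of 7.74e-08. H2-Eb1 (-3.84), H2-Aa (-3.79) and Cd74 (-3.68) were lower by similar amounts. The exchange factor genes H2-DMb1 (-3.14) and H2-DMa (-2.77) and the inhibitor gene H2-Ob (-2.72) followed. Ciita averaged 0.746 ± 0.490 FPKM in B16F10 and 7.96 ± 2.92 FPKM in MC38 RFP+ cells, a log2 difference of -2.33 ± 0.36 (limma adjusted p = 0.000128). H2-DMb2 (-1.57, limma adjusted p = 0.00661) and H2-Oa (-1.16, 0.0174) had the smallest differences. The call of H2-Oa was lost with no filter on low values (limma adjusted p = 0.0809), without B16F10 RFP+ number 12 (0.0807), without MC38 RFP+ number 3 (0.0629) and with the block without the number 12 pair (0.0837).

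In RFP- cells 8 of the 10 were lower in B16F10, beside 21.9% of genes kept (22.0% with the block). The median log2 difference was -2.44, beside 0.23 for all genes kept. The differences were -2.89 for H2-Eb1, -2.87 for H2-Ab1, -2.78 for Cd74, -2.76 for H2-Aa, -2.39 for H2-DMb1, -2.27 for H2-Ob and -1.82 for H2-DMa. Ciita averaged 1.69 ± 1.34 FPKM in B16F10 and 13.0 ± 2.53 FPKM in MC38 RFP- cells, a log2 difference of -2.49 ± 0.36 (limma adjusted p = 6.59e-05). H2-DMb2 (-0.70 ± 0.42, limma adjusted p = 0.168) and H2-Oa (-0.39 ± 0.37, limma adjusted p = 0.388) overlapped between the tumours and did not pass. H2-DMb2 rested on single libraries, since without B16F10 RFP- number 3 it was lower at -1.30 (limma adjusted p = 0.00328), and without B16F10 RFP- number 12 it stood at -0.14. Without overlap and lower in B16F10 were 10 of 10 genes in RFP+ and 8 of 10 in RFP- cells, against 24.8% and 22.8% of genes kept.

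These differences in FPKM were measured beside a large difference in what else the libraries held. The 5 melanocytic genes Pmel, Tyr, Tyrp1, Dct and Mlana summed to 7677 to 10098 FPKM in B16F10 RFP+ and 7632 to 10094 FPKM in B16F10 RFP- cells, against 6.09 to 10.7 FPKM in MC38 RFP+ and 5.003 to 10.3 FPKM in MC38 RFP- cells. Of the 6 macrophage core genes 5 were called lower in B16F10 in each gate. Scaling every library to those 6 genes moved the median of all genes kept to 1.63 in RFP+ and 1.71 in RFP- cells, while the median of the 10 genes, Ciita included, stood at -1.46 and -0.95. On that scale 79.5% of genes kept were called higher in B16F10 and 3.46% lower in RFP+ cells, and 78.7% higher and 3.51% lower in RFP- cells. Beside those shares 8 of the 10 were lower in B16F10 RFP+ cells, the exceptions being H2-DMb2 (-0.062) and H2-Oa (-0.10). In RFP- cells 7 were lower, H2-DMa stood at -0.064, H2-DMb2 at 0.95 (limma adjusted p = 0.0675), and H2-Oa was higher in B16F10 at 0.99 (limma adjusted p = 0.024). H2-Ab1 remained lower at -2.25 in RFP+ and -1.10 in RFP- cells, and Ciita at -1.15 and -1.14. Tumour and set of library numbers coincide in this design, so a difference in handling between the B16F10 and MC38 libraries cannot be told apart from the tumour.

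**Figure D3:**
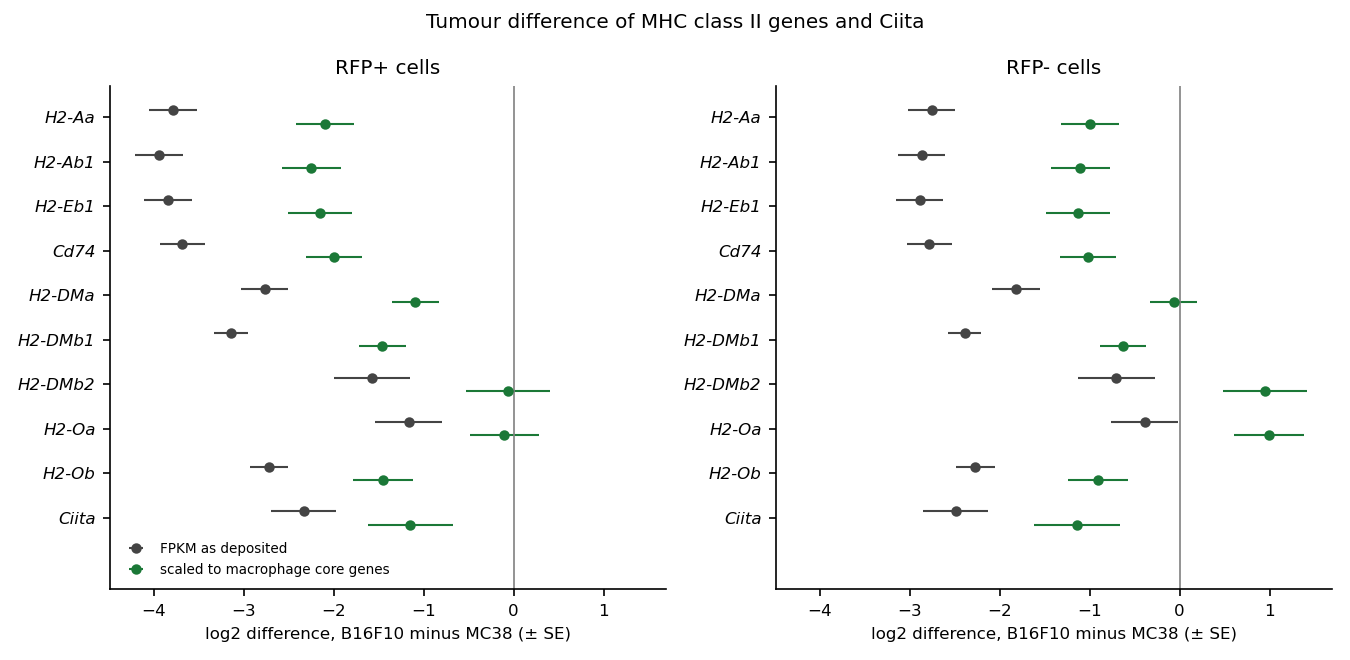
Log2 difference B16F10 minus MC38 (± SE) of each gene in RFP+ and RFP- cells, from FPKM as deposited and after scaling to 6 macrophage core genes. Scaling moves every gene to the right; H2-Ab1 goes to -2.25 in RFP+ cells and H2-Oa to 0.99 in RFP- cells.

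All 11 genes of interferon gamma signalling and Ciita control were lower in B16F10 in FPKM as deposited, beside 20.0% of genes kept in RFP+ and 21.9% in RFP- cells. Their medians were -1.88 in RFP+ and -1.85 in RFP- cells, beside 0.23 for all genes kept in each. Irf1 averaged 22.0 ± 3.75 FPKM in B16F10 and 214 ± 28.9 FPKM in MC38 RFP+ cells (log2 difference -3.23, limma adjusted p = 8.13e-09). The receptor chains Ifngr1 (-2.002) and Ifngr2 (-1.04) and the kinases Jak1 (-0.53) and Jak2 (-1.14) were lower in RFP+ cells, as were the feedback inhibitor Socs1 (-2.69), the E-box factor Usf1 (-0.93), the myeloid factors Irf8 (-1.88) and Spi1 (-1.65), and Prdm1, a repressor of Ciita in plasma cells (-2.78). With scaling to the core genes 4 of the 11 were lower in RFP+ cells and 3 in RFP- cells, beside 3.46% and 3.51% of genes kept. Ifngr2, Jak1 and Usf1 turned to higher in RFP+ cells and Usf1 in RFP- cells, beside 79.5% and 78.7% of genes kept called higher. The medians on that scale were -0.21 in RFP+ and -0.29 in RFP- cells, beside 1.63 and 1.71 for all genes kept.

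The 7 genes of the promoter complex had medians of 0.028 in RFP+ and 0.10 in RFP- cells, beside 0.23 for all genes kept in each. Of these genes Nfyc was higher in B16F10 in both gates (0.56 in RFP+ and 0.76 in RFP- cells), beside 35.2% and 37.8% of genes kept called higher, and Nfya was lower in RFP+ cells (-0.63, limma adjusted p = 0.0114). Rfx5, the DNA-binding subunit of RFX, averaged 3.35 ± 1.69 FPKM in B16F10 and 2.72 ± 1.02 FPKM in MC38 RFP+ cells and did not pass (0.18, limma adjusted p = 0.661). After scaling to the core genes their medians were 1.40 in RFP+ and 1.70 in RFP- cells, beside 1.63 and 1.71 for all genes kept.

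Of the 7 antigen processing genes 5 were lower in B16F10 RFP+ cells and 6 in RFP- cells, or 7 in RFP- cells with the block, beside the same shares of 20.0% and 21.9% of genes kept. Their medians were -1.23 in RFP+ and -0.94 in RFP- cells. Ctss averaged 1210 ± 221 FPKM in B16F10 and 7567 ± 721 FPKM in MC38 RFP+ cells (-2.66, limma adjusted p = 1.08e-07). Legumain (Lgmn, -1.23), the thiol reductase Ifi30 (-1.03), the invariant chain fragment protease Sppl2a (-1.38) and the cathepsin inhibitor Cst3 (-1.32) were lower too. Ctsl was lower in RFP- cells (-0.78) and did not pass in RFP+ cells (0.35, limma adjusted p = 0.0766). After scaling 1 of the 7 was lower in each gate, beside 3.46% of genes kept in RFP+ and 3.51% in RFP- cells. Ctsl, Ctsb and Ifi30 were higher in both gates and Cst3 in RFP- cells, beside 79.5% and 78.7% of genes kept called higher. The medians were 0.46 in RFP+ and 0.82 in RFP- cells, beside 1.63 and 1.71 for all genes kept. At the surface, the costimulators Cd86 (-3.24), Cd40 (-2.81) and Cd80 (-2.37) and the class II ubiquitin ligase gene March1 (-2.34) were lower in B16F10 RFP+ cells, and in RFP- cells as well, while March8 did not pass in either. Mif, a ligand of the surface invariant chain, averaged 2620 ± 382 FPKM in B16F10 and 853 ± 81.4 FPKM in MC38 RFP+ cells. It was higher in B16F10 (1.61, limma adjusted p = 1.32e-05), as was its homologue Ddt (0.93). Of all genes kept, 35.2% were called higher in B16F10 RFP+ and 37.8% in RFP- cells. After scaling Mif, Ddt and Cd44 were all higher in both gates (medians 2.57 and 2.73), beside 79.5% and 78.7% of genes kept. Of the 5 surface genes, 4 stayed lower in RFP+ and 3 in RFP- cells, and 1 was higher in each, beside the same shares of genes kept after scaling. The cells behind the Mif signal were not tested.

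FPKM is scaled to transcript length, so levels can be set side by side between the genes. In all 4 groups the mean levels ran Cd74, H2-Ab1, H2-Aa, H2-Eb1, H2-DMb1, H2-DMa and H2-DMb2 from high to low. In B16F10 RFP+ cells and in both MC38 groups none of these neighbours overlapped. In B16F10 RFP- cells the ranges over libraries overlapped between Cd74 and H2-Ab1, H2-Ab1 and H2-Aa, and H2-DMb1 and H2-DMa. Within each of these libraries Cd74 stood above H2-Ab1 and H2-Ab1 above H2-Aa, while H2-DMa per H2-DMb1 ran from 0.569 to 1.009. Below H2-DMb2 the order turned with the tumour. H2-Oa was the lowest of the 10 in MC38, at 3.22 FPKM in RFP+ cells and 4.94 FPKM in RFP- cells, whereas in B16F10 its mean lay above those of H2-Ob and Ciita, with overlapping ranges. Ciita and H2-Ob overlapped in every group but MC38 RFP+ cells.

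The highly expressed genes kept close proportions while their level changed. H2-Aa per H2-Ab1 was 0.423 to 0.514 in B16F10 RFP+ and 0.429 to 0.479 in B16F10 RFP- libraries, against 0.407 to 0.441 in MC38 RFP+ and 0.393 to 0.443 in MC38 RFP- libraries. Cd74 per H2-Ab1 was 1.89 to 2.39 in B16F10 RFP+, 1.72 to 1.83 in B16F10 RFP-, 1.71 to 1.98 in MC38 RFP+ and 1.57 to 1.85 in MC38 RFP- libraries. In B16F10 the invariant chain thus had no overlap between gates in this ratio, higher in RFP+ libraries, and the difference was not tested. The exchange factor made up more of the set in B16F10, where H2-Ab1 per H2-DMb1 was 8.27 to 12.7 in RFP+ and 11.4 to 14.4 in RFP- libraries, against 16.1 to 20.6 in RFP+ and 16.9 to 17.98 in RFP- libraries of MC38, a description with no test.

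Ratios with the low genes were wide. H2-DMb1 per H2-DMb2 was 11.7 to 17.7 in B16F10 RFP+ and 7.83 to 34.6 in B16F10 RFP- libraries, against 34.4 to 46.1 in MC38 RFP+ and 30.6 to 57.0 in MC38 RFP- libraries. H2-DMb1 per H2-Ob, the exchange factor over a chain of its inhibitor, was 54.1 to 141 in B16F10 RFP+, 91.4 to 121 in B16F10 RFP-, 48.4 to 59.9 in MC38 RFP+ and 64.4 to 86.8 in MC38 RFP- libraries. H2-Ab1 per Ciita ran from 608 to 2107 in B16F10 RFP+ and from 938 to 4430 in B16F10 RFP- libraries, against 1099 to 2101 in MC38 RFP+ and 1097 to 1291 in MC38 RFP- libraries, so the groups overlapped.

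**Figure D4:**
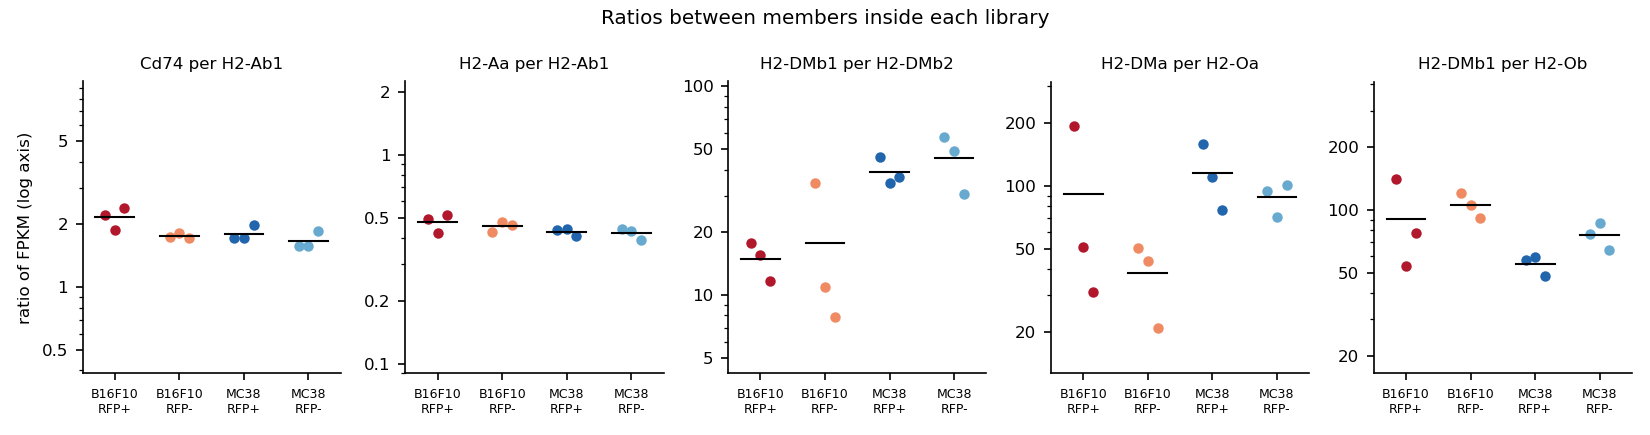
Ratios of FPKM between class II genes inside each library on log axes of equal span, with points for libraries and bars for the mean of 3. H2-Aa per H2-Ab1 stays between 0.393 and 0.514 in all 12 libraries, while the ratios that involve H2-DMb2, H2-Oa and H2-Ob spread widely.

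Across the 12 libraries the levels on log2(FPKM + 1) moved together, mostly along the tumour contrast. Pearson's r was 0.999 between H2-Aa and H2-Ab1, 0.997 between H2-Ab1 and Cd74 and 0.946 between H2-Ab1 and Ciita. After each group's mean was taken off, which leaves the spread between libraries of a group, r was 0.963, 0.937 and 0.531 for the same pairs. For H2-DMa and Ciita r was 0.890 across libraries and -0.041 after centring. These values describe 12 libraries that share a tumour, a gate or a number. Ciita's low levels in B16F10 may add noise to its own values.

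Among 8054 other genes with a mean of at least 5 FPKM, those most like the mean of H2-Aa, H2-Ab1, H2-Eb1 and Cd74 over the 12 libraries were Gm5150 (r = 0.989), Plbd1 (0.986), Myl12b (0.983), Serpina3g (0.983), Spint1 (0.983) and Sh2d1b1 (0.982). Gm5150 averaged 7.24 FPKM in B16F10 RFP+, 12.1 FPKM in B16F10 RFP-, 38.7 FPKM in MC38 RFP+ and 44.1 FPKM in MC38 RFP- cells. Its r fell to 0.760 after centring on the groups. Most like Ciita were Ube2j1 (0.968), Napsa (0.956), Itgax (0.956), Dnase1l3 (0.955), Mob3c (0.955) and Cdh1 (0.955). Itgax, which encodes the integrin CD11c, averaged 7.23 FPKM in B16F10 RFP+, 9.41 FPKM in B16F10 RFP-, 62.4 FPKM in MC38 RFP+ and 68.9 FPKM in MC38 RFP- cells. Cdh1 kept the highest r with Ciita of these 6 after centring, at 0.891.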

How the data were processed

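Each of the 12 libraries came as a table of gene symbols with 1 FPKM value per gene, the unit per the file headers, used as deposited by the authors. RNA was extracted with TRI Reagent and made into libraries with SMART-Seq HT and Nextera XT kits, per the labels' protocols. The submitters' processing notes name the mm10 build, Cuffdiff 2.2.1, TopHat2 2.1.1, SAMtools 0.1.18 and Bowtie2 2.2.8. Not given in the sources used here are the annotation, the strand setting and how libraries were scaled to each other. No count model was fitted, since FPKM are not counts, and depth was read only from values under 0.2 FPKM. No pair of libraries was identical.

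Values were taken to log2(FPKM + 1), and the filter of 1 FPKM or more in 3 or more libraries kept 11808 of 24346 genes, among them the 9 class II pathway genes and Ciita. limma 3.58.1 in R 4.3.3 (lmFit, eBayes with a trend) was fitted to 4 group means with 8 residual degrees of freedom, two-sided, with Benjamini-Hochberg adjustment over all genes kept and a threshold of 0.05. The method was tested on simulated data. Library numbers stand in both gates of a tumour, and deviations from the group means correlated at r from 0.228 to 0.443 within same-number pairs, each above the limit of 0.1, and at -0.306 to 0.0178 otherwise, so the numbers were taken to pair the libraries. With the number as a block the fit has 4 residual degrees of freedom; in the tumour comparisons it entered as a random effect with a correlation of 0.291. P-values measure the spread between these libraries, which may be partly technical.

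The genes, the pathway and marker lists and the tests were chosen with earlier results of these data known. The naming rule took all 10 genes, pathway genes past the threshold in either fit (1 of which is not reported here), and the 6 genes with the highest Pearson r; Rfx5, Arg1 and single marker genes were named outside it, after their values were seen. Motifs were searched and plots drawn with Python 3.11.15, numpy 2.4.6 and matplotlib 3.10.9. Alternatives were other pseudocounts, filters, scalings, samples and weights, the block, and each library left out; the block together with core gene scaling was added after seeing the data.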

Additional observations from a re-analysis of the deposited data

How the results depend on the processing

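The 4 genes called lower in B16F10 RFP+ cells became 1 with a pseudocount of 0.1, 0 with no filter, 1 with quantile normalization, 0 with the compared groups alone, 6 with the replicate block, 7 with the block without the number 12 pair, 10 with array weights and 9 with the block and core gene scaling, and 0 to 6 with 1 library left out. The 4 called lower over the mean of both tumours became 0 with no filter, 2 with quantile normalization, 6 with the block, 7 with the block without the number 12 pair, 9 with array weights and 8 with the block and core gene scaling, and 1 to 6 with 1 library left out. For most of these settings the share of all genes called is not given here, so the counts show only how far the calls moved. In the other comparisons the block changed no call of the 10 genes. In RFP- cells 1 gene, H2-Oa, was higher in B16F10 with core gene scaling, with or without the block, and 0 otherwise. Signs turned for H2-Oa in that comparison (0.99 with core gene scaling, with or without the block, 0.22 with array weights, 0.000968 without B16F10 RFP- number 11 and -0.78 to 0.000968 over all libraries left out) and for H2-DMb2 (0.95, with or without the block, and 0.34 with array weights). They also turned for H2-Ob in MC38 (0.00102 without RFP+ number 2, -0.12 to 0.00102 over all libraries left out) and for Ciita in the difference between tumours, which was -0.14 with a pseudocount of 0.1, -0.0056 with core gene scaling, with or without the block, -0.15 with the block without the number 12 pair, -0.62 with array weights, and -0.22, -0.15 and -0.064 without B16F10 RFP- number 12, MC38 RFP+ number 3 and B16F10 RFP+ number 11 (-0.22 to 0.52 over all libraries left out). The cause was not tested. Over all settings the median log2 difference of the 10 genes stayed negative in each comparison, from -1.82 to -1.01 in B16F10 and from -0.60 to -0.33 in MC38. No symbol was repeated, so taking the largest value per symbol changed nothing, and the mean and the difference use all 4 groups, so a fit of the compared groups alone does not apply. By the estimate from the lowest values, depth limits Ciita, H2-Oa and H2-Ob in B16F10, where they stood at low FPKM.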
